A study of Homo sapiens with 6 samples.

Results

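U87-MG is an established line of human glioblastoma (GBM) cells, and the genes described here are 45 genes of DNA replication and G1/S entry, taken by name from a table of 61731 genes and loci. They were listed by function: the MCM2-7 helicase and the factors that load and start it, the sliding clamp and its loader, the replicative polymerases, deoxynucleotide synthesis, G1/S cyclins and E2F factors, and proteins that act on chromatin or forks in S phase. All 45 symbols matched 1 row of the table each. The study compared U87 cells carrying a lentiviral knockdown (KD) of CHRM3, the M3 muscarinic acetylcholine receptor, with negative control (NC) cells, and 3 RNA libraries of each group were used. The labels call the groups CHRM Knockdown and Normal control. Neither the labels nor the methods give the KD sequence that was used for them, or whether the libraries were made from separate cultures, so the p-values below measure the spread between these samples, which may be technical.

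Before S phase, the origin recognition complex, CDC6 and CDT1 place the ring-shaped MCM helicase on DNA, a step called licensing. Cyclin E with its kinase then helps to start S phase, when CDC45 and the GINS complex turn the ring into a moving helicase, and polymerases, held on DNA by the PCNA clamp, copy both strands from deoxynucleotides made by ribonucleotide reductase and thymidylate synthase. Most of these genes are transcribed under E2F factors, which the retinoblastoma protein restrains in G1, and together they serve as a readout of how many cells are dividing.

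The values are transcripts per 1000000 (TPM), a level per length of transcript within 1 library, which keeps no read depth. Per library, 22597 to 23311 genes had a value above 0, and the read depth and with it the counting error are unknown. Levels are given as the mean ± SD of the 3 libraries of a group, or library by library in the order of the replicate numbers, and a log2 change is the difference KD minus NC on the scale log2(TPM + 1). CHRM3 itself was listed at 0.02, 0.09 and 0.13 TPM in the NC libraries and 0.13, 0.01 and 0.02 TPM in the KD libraries, without a detectable difference (exact two-sided permutation test, p = 0.8, where 0.1 is the smallest that 3 against 3 allow). At levels this low a knockdown can hardly be seen. The paper reports separately that CHRM3 was knocked down efficiently in U87-MG. Within these libraries the direction of every change rests on the labels. The NC and KD libraries are therefore written as labelled throughout. Of 7 glioma and glial markers, VIM and CD44 were abundant, whereas SOX2, OLIG2 and S100B stayed under 1 TPM in all libraries. The summed level of 6 leukocyte markers was 5.39 to 5.87 TPM in NC and 9.25 to 9.44 TPM in KD, nearly all of it CSF1R, with CD3E and TYROBP at 0. Endothelial and epithelial markers summed to at most 0.25 and 1.55 TPM. CDKN2A, whose loss is a known feature of U87, was listed at 0 in all 6 libraries. Transcripts of the mitochondrial genome made up 5.32% to 5.47% of the NC libraries and 4.41% to 4.87% of the KD libraries.

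The promoters of the genes that moved furthest are shown first, because most replication genes are known as E2F targets. RefSeq windows (GRCh38.p14) of 300 bases, reaching from 250 before to 50 after a start, were found for 39 of the 45 genes, as 50 windows. The windows printed are those of MCM3 and CHAF1A, the largest falls, and of MCM6, the only rise, each cut to the 250 bases before the start and written 5′ to 3′ on the gene's strand. Capitals mark matches on either strand to the E2F letters TTTCGCGC or TTTGGCGC, to CCAAT, to the GC-box letters GGGCGG bound by SP1 or to the CHR letters TTTGAA.
MCM3, minus strand of chr6:52284743-52284992: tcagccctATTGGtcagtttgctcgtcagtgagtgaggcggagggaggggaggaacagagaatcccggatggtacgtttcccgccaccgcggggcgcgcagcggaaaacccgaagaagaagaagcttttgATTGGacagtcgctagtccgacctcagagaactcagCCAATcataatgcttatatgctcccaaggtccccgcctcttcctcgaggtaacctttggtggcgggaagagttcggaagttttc
CHAF1A, plus strand of chr19:4402390-4402639: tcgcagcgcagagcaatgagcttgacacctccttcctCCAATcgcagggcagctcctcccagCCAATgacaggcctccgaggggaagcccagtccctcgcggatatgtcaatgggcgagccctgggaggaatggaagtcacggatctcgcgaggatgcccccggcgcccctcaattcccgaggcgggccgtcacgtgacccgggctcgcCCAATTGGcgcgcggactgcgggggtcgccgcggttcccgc
MCM6, minus strand of chr2:135876444-135876693: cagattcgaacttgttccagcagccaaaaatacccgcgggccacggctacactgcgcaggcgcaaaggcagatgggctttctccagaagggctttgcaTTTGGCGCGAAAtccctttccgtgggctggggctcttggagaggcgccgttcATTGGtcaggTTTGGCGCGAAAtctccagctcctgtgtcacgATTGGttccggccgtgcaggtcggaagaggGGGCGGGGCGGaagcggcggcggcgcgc

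The MCM6 stretch held 4 E2F matches, in a run of 12 bases that occurs 152 and again 90 bases before the start and holds one E2F word on each strand. MCM3 held 3 CCAAT matches and CHAF1A 4, and neither had a match to the E2F letters searched wholly before its start. Other forms of an E2F site were not searched here or in the shares below, so a window without a match may still hold one. An E2F match of MCM3 begins 4 bases before the start and runs across it. A match is a description of letters and was not tested as a binding site.

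Over the full windows, 13 of the 50 held an E2F match (26%), against 1.15% of all 35116 RefSeq windows and 1.93% of the 14413 windows of genes tested in these cells. CCAAT was found in 58% of the windows of the replication genes and in 34.9% of the windows of tested genes. The GC-box letters stood at 72% against 65.8%, and the CHR letters, which belong to genes of G2 and mitosis, at 2% against 10.75%. The E2F share was 25% of the windows of genes called lower (defined below) and 26.9% of the windows of the others. In the 250 bases before the start alone it was 12.5% (3 of 24 windows) and 23.1% (6 of 26), and neither difference was tested. The GC-box letters were in 58.3% of the windows of genes called lower and in 84.6% of the others, a difference that was not tested. A single E2F match overlapped another motif, in a window of MCM7. Every E2F match that lies wholly before a start is given here with 10 bases on each side, cut off at the start. The E2F letters, or their reverse complement, are in capitals. Genes called lower come first, then genes not called, then MCM6, and a link between the letters and the change was not tested.
E2F2, chr1:23531258-23531285, minus strand: cggcacgacgTTTGGCGCtaaaaaaaaa
DTL, chr1:212035730-212035747, plus strand: gtgacgtcagTTTGGCGC
UHRF1, chr19:4909974-4910001, plus strand: ccgagcccgaTTTCGCGCgccctgagtt
E2F1, chr20:33686388-33686415, minus strand: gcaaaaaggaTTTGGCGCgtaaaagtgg
POLE, chr12:132687343-132687370, minus strand: gggtgggagcGCGCCAAAtttctcccct
POLA1, chrX:24693771-24693798, plus strand: tcatcacaggGCGCCAAAcgcgcgtccg
POLA2, chr11:65261899-65261926, plus strand: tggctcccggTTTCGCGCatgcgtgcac
MCM7, chr7:100101398-100101416, minus strand: gggggcgacgTTTCGCGCc
MCM6, chr2:135876574-135876605, minus strand: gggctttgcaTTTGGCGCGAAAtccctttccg
MCM6, chr2:135876512-135876543, minus strand: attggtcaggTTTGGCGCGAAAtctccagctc

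Of the 45 DNA replication and G1/S genes, 20 fell, 1 rose and 24 did not pass the test (limma on log2(TPM + 1), adjusted p under 0.05 over the 13722 genes of 1 TPM or more on average). Over all genes tested, 24% were called lower and 12.1% higher. These genes are more abundant than most, with mean levels of 6.16 to 237.6 TPM and a median of 41 TPM, against a median of 12.4 TPM for all genes tested, and abundant genes are called more often. Among genes of 5 TPM or more, which all 45 were, 30.6% were called lower and 15.2% higher, and by that fit 21 of the 45 fell and 1 rose. No gene of the 45 reached a log2 change of 1, a size that 1.87% of the tested genes passed with an adjusted p under 0.05. The median log2 change was -0.14 for the 45 genes and -0.06 for all genes tested.

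The 3 KD values lay below the 3 NC values for 27 of the 45 genes, and above them for MCM6 alone. Over all tested genes these shares were 32.8% and 17.4%. Summed over the 45 genes, the level was 3166 ± 34.2 TPM in NC and 2803 ± 33.9 TPM in KD, so that the sum fell by 11.5%. TPM is a share of the library, and rescaling by the median of ratios moved the median of all genes to 0.00. After that rescaling 14 of the 45 genes fell and 2 rose, where 16.4% of the tested genes were called lower and 16.8% higher, and the median of the 45 genes was -0.07. With the mitochondrial transcripts left out, 21 fell and 1 rose. In bulk RNA, fewer cells in S phase and less of these transcripts per cell cannot be told apart.

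The MCM2-7 helicase opens the double helix ahead of the fork and is a ring of 6 different subunits. Its genes did not move together: MCM2 and MCM3 fell, MCM6 rose, and MCM4, MCM5 and MCM7 did not pass the test. MCM3 (ENSG00000112118, chromosome 6 from 52264009 to 52284881 in GRCh38) was 191.92, 192.01 and 190.06 TPM in NC and 115.39, 115.3 and 117.28 TPM in KD. The groups stood far apart, with libraries of a group within a few TPM of each other. Its log2 change by limma was -0.72 (SE 0.0196, adjusted p = 4.37e-06), the largest of the 45 genes in either direction.

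MCM6 (ENSG00000076003, chromosome 2 from 135839626 to 135876426) was 51.03, 53.9 and 55.49 TPM in NC and 67.38, 68.67 and 66.93 TPM in KD. Every KD library was above every NC library, and the log2 change by limma was 0.33 (SE 0.0371, adjusted p = 0.000887). MCM6 was the least abundant subunit in both groups. The level of MCM3 was 3.58 ± 0.169 times that of MCM6 in NC and 1.72 ± 0.037 times in KD, a ratio within each library that does not depend on a scaling factor.

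MCM2 was 106.85, 106.08 and 112.33 TPM in NC and 98.37, 93.1 and 91.19 TPM in KD, which did not overlap, with a log2 change of -0.20 by limma (adjusted p = 0.00806) that did not pass with quantile normalization (-0.12, adjusted p = 0.0577). The KD values of MCM5 also lay below those of NC, at 101.9 ± 2.2 against 107.5 ± 3.02 TPM, but its adjusted p was 0.0951. MCM4 spread widely, from 123.55 to 144.28 TPM in NC and from 109.6 to 129.35 TPM in KD, and the groups overlapped. MCM7, the most abundant subunit, was 210.4 ± 2.38 TPM in NC and 209.6 ± 3.24 TPM in KD, with a 95% interval of the log2 change from -0.06 to 0.04.

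**Figure D1:**
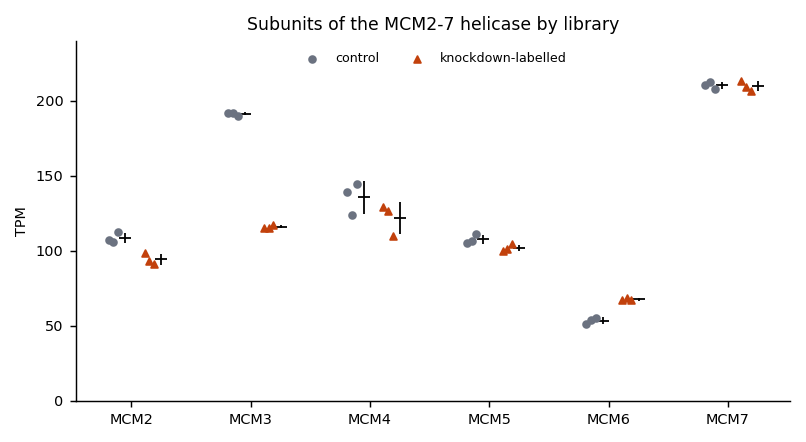
TPM of the 6 subunits of the MCM2-7 helicase in each library, with the mean and SD of each group beside the points (n = 3). The KD points of MCM3 lie at 115.3 to 117.28 TPM, against 190.06 to 192.01 TPM in NC, while those of MCM6 lie above NC and those of MCM7 overlap.

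The 4 licensing genes among the 45 formed the only role in which every listed gene passed the test. ORC1 and ORC6, subunits of the origin recognition complex, CDC6, which joins it, and CDT1, which brings the MCM ring, all fell, with log2 changes of -0.15, -0.19, -0.18 and -0.26 in that order. CDT1 (ENSG00000167513, chromosome 16 from 88803213 to 88809258) was 36.21, 38.46 and 37.4 TPM in NC and 30.55, 32.65 and 29.98 TPM in KD (limma adjusted p = 0.00522). CDC6 went from 50.1 ± 0.682 to 44 ± 1.55 TPM and ORC6 from 53.3 ± 1.45 to 46.7 ± 0.532 TPM. ORC1, at 16.9 ± 0.478 and 15.2 ± 0.154 TPM, passed narrowly (limma adjusted p = 0.0293). No KD library reached an NC library for any of the 4 genes. The calls of CDC6 and ORC1 did not survive median-of-ratios or quantile scaling, and that of ORC1 survived the removal of no library other than NC replicate 1. The origin recognition complex has further subunits outside the 45 genes. ORC5 fell (log2 change -0.16, limma adjusted p = 0.0232). ORC2, ORC3 and ORC4 did not pass, with -0.06, -0.15 and 0.09 (limma adjusted p = 0.639, 0.183 and 0.435).

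None of the 6 genes of helicase activation passed the test, although GINS3 and MCM10 did so under alternatives. CDC45, which binds the MCM ring together with GINS, was 42.28, 39.83 and 42 TPM in NC and 40.73, 40.26 and 40.63 TPM in KD, where all KD values lay within the NC range. MCM10, a factor that helps the helicase to start, had a log2 change of -0.17 that did not pass (limma adjusted p = 0.0846), but did without KD replicate 2 (adjusted p = 0.0492). GINS3 came nearest among the GINS subunits, at 23.2 ± 0.571 TPM in NC and 20.2 ± 1.62 TPM in KD (limma adjusted p = 0.0525), and it passed as a fall among genes of 5 TPM or more (adjusted p = 0.0389), without mitochondrial transcripts (0.0408) and without KD replicate 2 (0.0132). GINS2 was the only gene of this role with a positive value, 0.08, and its 95% interval reached from -0.16 to 0.32. GINS4 spread in KD from 12.66 to 20.25 TPM, wider than the NC range of 16.16 to 18.93 TPM. GINS1 was the least abundant of the 45 genes and had a log2 change of -0.14, with an interval from -0.36 to 0.07. The intervals of GINS1, GINS3, GINS4 and MCM10 reach below the -0.26 of CDT1, while that of CDC45 ends at -0.11.

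PCNA, the ring that holds polymerases on DNA, was the most abundant of the 45 genes after RRM2 over the 6 libraries, and it fell. PCNA (ENSG00000132646, chromosome 20 from 5114953 to 5126626) was 253.63, 252.02 and 256.05 TPM in NC and 214.69, 204.2 and 201.55 TPM in KD, with a log2 change of -0.30 by limma (SE 0.0277, adjusted p = 0.000461). The KD libraries were all below the NC libraries by more than the spread within either group. The clamp loader that opens this ring is made of RFC1 to RFC5. RFC3 fell from 43.4 ± 1.76 to 33.6 ± 1.05 TPM and RFC5 from 43.6 ± 1.11 to 36.9 ± 0.272 TPM, with limma adjusted p of 0.00111 and 0.00194. RFC2 and RFC4 had log2 changes of -0.10 and -0.12 that did not pass (limma adjusted p = 0.137 and 0.0707), RFC4 passing without NC replicate 2 (adjusted p = 0.0289). RFC5 shares 5.7% of its exon bases with WSB2 on the opposite strand, and whether the counting used strand is not stated in the sources used here.

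Of the 6 genes listed for polymerases and primase, 1 fell, POLD1. POLD1, the catalytic subunit of polymerase delta on the lagging strand, was 48.94, 45.84 and 50.04 TPM in NC and 35.76, 39.86 and 38.1 TPM in KD. The groups were clear of each other, and the log2 change by limma was -0.34 (SE 0.0525, adjusted p = 0.00335). POLE, the catalytic subunit of polymerase epsilon on the leading strand, had 1 KD library at 24.45 TPM, above 2 of the 3 NC libraries, and a log2 change of -0.14 by limma (adjusted p = 0.229). The 4 genes of polymerase alpha-primase, which lays down primers, all had small negative values. They were -0.06 for POLA1, -0.01 for POLA2, -0.08 for PRIM1 and -0.12 for PRIM2, with adjusted p from 0.318 to 0.971. POLA2 ranged from 17.59 to 23.86 TPM within NC, and 35.1% of its exon bases are shared with another annotated gene on the same strand, so its level is uncertain.

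RPA2, a subunit of the protein that coats single-stranded DNA, fell from 122.1 ± 2.04 to 103.2 ± 1.4 TPM, with a log2 change of -0.24 by limma (adjusted p = 0.000609). FEN1, the nuclease that trims the flaps of Okazaki fragments, fell from 83.2 ± 2.41 to 75.1 ± 3.1 TPM (limma adjusted p = 0.0289), a call that did not survive without NC replicate 1, NC replicate 3, KD replicate 2 or KD replicate 3, nor after median-of-ratios scaling. LIG1, the ligase that seals the fragments, overlapped between the groups, at 17.25 to 22.59 TPM in NC and 17.19 to 20.61 TPM in KD.

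For deoxynucleotide synthesis, 3 of 4 genes fell, and by unequal steps. RRM1, the large subunit of ribonucleotide reductase, was 95.41, 93.27 and 94.41 TPM in NC and 75.01, 73.57 and 73.24 TPM in KD. Its log2 change of -0.35 by limma (SE 0.024, adjusted p = 0.000139) was among the most precise of the set. RRM2, the small subunit made in S phase, was 249.1 ± 9.33 TPM in NC and 226 ± 4.94 TPM in KD, a log2 change of -0.14 by limma (adjusted p = 0.0178) that did not pass without NC replicate 1, KD replicate 2 or KD replicate 3, nor after median-of-ratios scaling. TYMS, the thymidylate synthase, fell by 0.08 on the log2 scale (limma adjusted p = 0.0419), but this call did not survive the removal of any of the 6 libraries, and 39.1% of its exon bases are shared with ENOSF1 on the opposite strand. TK1, the thymidine kinase of S phase, was 186.9 ± 5.05 TPM in NC and 177.6 ± 4.93 TPM in KD, lower in every KD library without passing the test (limma adjusted p = 0.111).

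Of the cyclin E genes, CCNE1 fell and CCNE2 did not pass the test. CCNE1 (ENSG00000105173, chromosome 19 from 29811898 to 29824308), which activates CDK2 at the start of S phase, was 23.55, 23.34 and 23.2 TPM in NC and 19.13, 18.47 and 19.22 TPM in KD. It fell with a log2 change of -0.29 by limma (SE 0.0359, adjusted p = 0.00139). CCNE2, its close relative, was 14.51, 14.79 and 14.06 TPM in NC and 16.28, 17.46 and 14.78 TPM in KD, so that 1 KD library lay inside the NC range. The log2 change of CCNE2 was 0.15 (limma adjusted p = 0.124). It passed as a rise after median-of-ratios scaling (0.22, adjusted p = 0.043), with quantile normalization and without KD replicate 3, and 37% of its exon bases are shared with INTS8 on the opposite strand. CCNE1 made up 61.8% ± 0.53 of the summed cyclin E level in NC and 54% ± 2.56 in KD.

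Among the E2F factors, E2F2, an activator, fell from 10.42, 11.32 and 11.39 TPM to 8.2, 7.75 and 8.43 TPM, with a log2 change of -0.40 by limma (adjusted p = 0.00285). E2F1, the more abundant activator, was 57.3 ± 1.07 TPM in NC and 54.6 ± 1.09 TPM in KD, which did not pass (limma adjusted p = 0.114). E2F8, a repressor of the family, had a log2 change of -0.06 with an interval from -0.18 to 0.05. Only MCM3, CHAF1A and DTL had larger falls than E2F2 among the 45 genes.

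CHAF1A, the large subunit of the chromatin assembly factor CAF-1 that places histones on new DNA, was the second largest fall. CHAF1A (ENSG00000167670, chromosome 19 from 4402662 to 4445018) was 53.44, 49.21 and 53.88 TPM in NC and 38.03, 33.9 and 33.15 TPM in KD. All KD libraries lay well under all NC libraries, and the log2 change by limma was -0.56 (SE 0.0627, adjusted p = 0.00091). CHAF1B, its partner, was 12.3 ± 0.637 and 11.8 ± 0.631 TPM, which did not pass (limma adjusted p = 0.482). The level of CHAF1A was 4.25 ± 0.333 times that of CHAF1B in NC and 2.97 ± 0.062 times in KD.

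UHRF1, which brings the maintenance DNA methyltransferase to new DNA, fell from 116.48, 115.83 and 116.1 TPM to 95.49, 93.93 and 87.97 TPM, with a log2 change of -0.33 by limma (adjusted p = 0.000745). It lies on chromosome 19 from 4903080 to 4962154. SLBP, which binds the stem-loop of histone messenger RNA, was 83.2 ± 0.227 and 82.2 ± 1.99 TPM, with an interval of the log2 change from -0.08 to 0.05. DTL, which directs the destruction of CDT1 in S phase, was 15.72, 16.26 and 20.35 TPM in NC and 11.06, 14.06 and 12.86 TPM in KD. Its log2 change was -0.43 by limma (SE 0.12, adjusted p = 0.0328), and the call did not survive without NC replicate 2, NC replicate 3, KD replicate 1 or KD replicate 3, nor after median-of-ratios scaling. CLSPN, the adaptor that relays fork stress to CHK1, did not pass, with an interval from -0.14 to 0.12.

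Within complexes, the balance of subunits was read as the share of each gene in the summed TPM of its complex, a quantity that does not depend on a scaling factor. MCM3 went from 23.7% ± 0.52 to 16.3% ± 0.47 of the MCM2-7 sum, and MCM6 from 6.63% ± 0.25 to 9.52% ± 0.18. POLD1 went from 12.7% ± 0.4 to 9.85% ± 0.36 of polymerase delta, whose accessory subunit POLD2 rose (log2 change 0.12, limma adjusted p = 0.0114). For polymerase epsilon, the histone-fold subunits POLE3 and POLE4 stood at 43.2% ± 1.94 and 42.9% ± 2.5 in NC and at 36.8% ± 0.51 and 50.7% ± 0.66 in KD. POLE3 fell (log2 change -0.27, limma adjusted p = 0.000739), as did POLD3 of polymerase delta (-0.25, adjusted p = 0.0331). POLE4 lay above NC in every KD library without passing the test (0.21, limma adjusted p = 0.0559). The share of RRM2B, the small subunit of ribonucleotide reductase that p53 induces, went from 6.41% ± 0.42 to 4.6% ± 0.16. In all of these the KD shares lay outside the NC range. The shares of polymerase alpha-primase overlapped between the groups for all 4 subunits, and so did those of the 4 GINS subunits. These shares are given as a description, since the pairs were noticed after the values were seen.

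**Figure D2:**
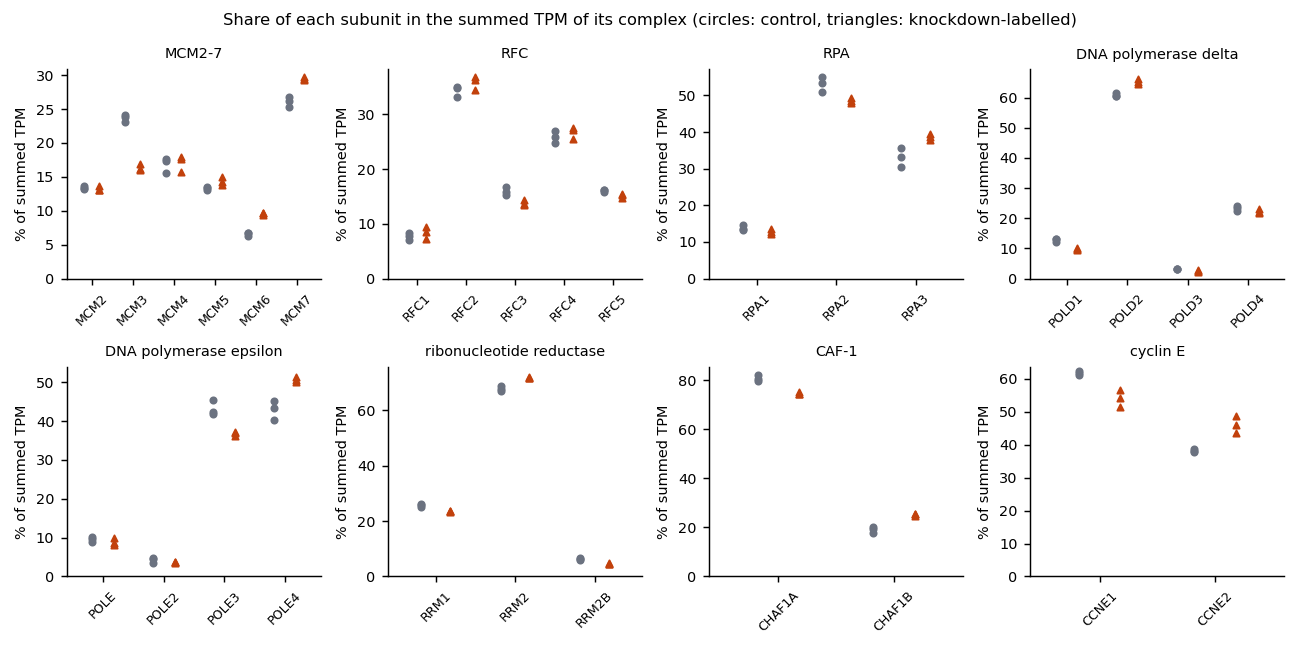
Share of each subunit, in percent of the summed TPM of its complex, in each library. Circles are NC and triangles are KD libraries (n = 3 each). MCM3 drops from 23.7% to 16.3% and MCM6 climbs from 6.63% to 9.52%, while MCM2 and MCM4 overlap.

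Of 34 further replication genes, 12 fell (35.3%, against 24% of all tested genes), 1 rose and 21 did not pass. Their median log2 change was -0.15. Among genes of 5 TPM or more, 12 of 30 fell and 2 rose, where 30.6% of all such genes were called lower and 15.2% higher. The largest falls were those of DONSON, a fork protein (29.1 ± 1.55 to 21.3 ± 0.715 TPM), RNASEH2A, the catalytic subunit of the nuclease that removes RNA from DNA (159.1 ± 1.66 to 118.6 ± 4.54 TPM), ASF1B, a histone chaperone (114.2 ± 3.86 to 86.5 ± 1.32 TPM), and TICRR, needed to fire origins (4.49 ± 0.412 to 3.17 ± 0.265 TPM). Their log2 changes were -0.43, -0.42, -0.40 and -0.40. RPA1, the large subunit of the single-strand binding protein, fell by 0.21 on the log2 scale (limma adjusted p = 0.0127). RPA3 and POLE2 did not pass, with 0.11 and -0.25, POLE2 passing without NC replicate 1 (adjusted p = 0.012). The call of TICRR did not survive without NC replicate 3, KD replicate 1 or KD replicate 3. The count of falls in this list was 6 of 34 after median-of-ratios scaling, where 16.4% of all tested genes were called lower. Without KD replicate 3 it was 7, where 2674 of all 13722 tested genes were called lower.

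Outside replication proper, the 18 other genes of nucleotide synthesis went both ways, with 4 falls (22.2%), 5 rises (27.8%) and a median log2 change of 0.04. Over all tested genes 24% were called lower and 12.1% higher. IMPDH1 and IMPDH2, which commit purines to guanine nucleotides, rose by 0.43 and 0.31 on the log2 scale (limma adjusted p = 0.000371 and 6.35e-05). RRM2B fell from 23.5 ± 0.994 to 14.5 ± 0.496 TPM, and TK2, the mitochondrial thymidine kinase, from 41.4 ± 1.01 to 22 ± 6.53 TPM, where KD replicate 2 stood at 29.51 TPM and the others at 17.53 and 19.02 TPM. The count of falls was 2 when any 1 of 5 libraries was left out.

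Of the 31 other G1/S regulators, 25 were tested, 11 fell (44%, against 24% of all tested genes) and 2 rose (8%, against 12.1%). CCND1, the D-type cyclin that growth signals induce, was 311.48, 309.55 and 311.91 TPM in NC and 215.7, 216.69 and 211.82 TPM in KD, with a log2 change of -0.53 by limma (SE 0.0179, adjusted p = 8.18e-06). CDKN1A, the p21 inhibitor of cyclin-dependent kinases, fell in the same libraries from 321.4 ± 4.56 to 216.8 ± 3.91 TPM (log2 change -0.57). Thus an activator and an inhibitor of G1/S fell by like amounts. CDK2, the partner of cyclin E, fell by 0.38 on the log2 scale, and CCNG2, a cyclin of resting cells, by 0.37, a call that did not survive without NC replicate 1, NC replicate 2, KD replicate 2 or KD replicate 3. MYC rose narrowly (0.15, limma adjusted p = 0.0411), a call that did not survive the removal of any of the 6 libraries, and RB1, at 10 ± 0.265 and 9.74 ± 0.618 TPM, did not pass.

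Of 20 genes of G2 and mitosis, 18 fell and none rose, the exceptions being CENPE and HMMR, and the median log2 change was -0.35 against -0.14 for the 45 genes. The difference between the lists was not tested. MKI67, the marker of dividing cells, went from 50.6 ± 1.74 to 40 ± 2.43 TPM (limma adjusted p = 0.00326). The largest falls were those of AURKA, BUB1, KIF20A and BUB1B, with log2 changes of -0.54, -0.49, -0.46 and -0.45. None of the 4 lists had a gene that passed both an adjusted p of 0.05 and a log2 change of 1.

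**Figure D3:**
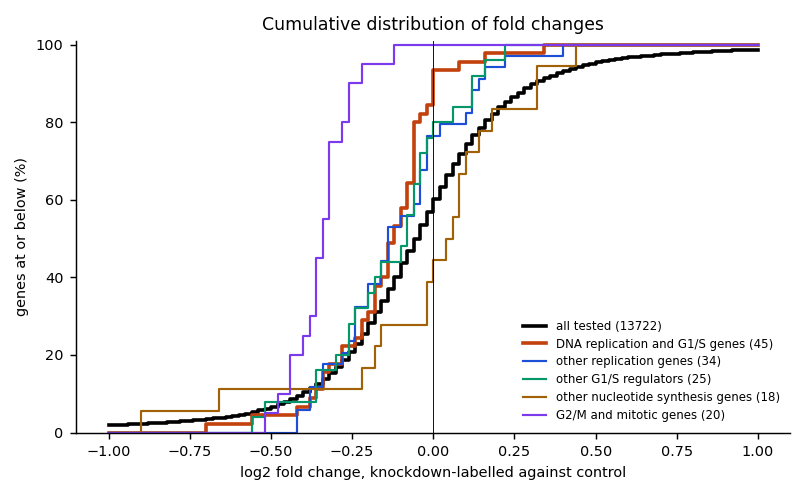
Cumulative share of genes, in percent, at or below each log2 change (KD against NC) for all tested genes, the 45 replication and G1/S genes and the 4 other lists, with the number of tested genes in brackets. The median of the replication genes lies slightly to the left of that of all genes (-0.14 and -0.06), and that of the mitotic genes further left (-0.35). The curves cross among larger falls. At a log2 change of -0.4 or below stand 6.67% of the replication genes and 10.4% of all genes.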

How the data were processed

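RNA from 3 NC and 3 KD libraries of U87 cells was sequenced with paired-end reads. The authors deposited TPM per gene and library, rounded to 2 decimals. The submitters' processing notes name fastp, RSEM and the build GRCh38.p13, without versions or order, and the annotation is not given in the sources used here. The paper names a TruSeq kit, the labels a SMARTER kit. TPM keeps no depth, so no counting error is given, and a share of each library moves when abundant genes change. All 6 columns matched a sample by title.

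Symbols were matched through a table of gene names (61369 of 61541 Ensembl IDs). Coordinates and exon overlaps came from GENCODE 29 (GRCh38). Genes averaging 1 TPM or more (13722) were fitted as log2(TPM + 1) in limma 3.58.1 (R 4.3.3) with group as the only term, a trend of variance on level, and Benjamini-Hochberg adjustment; a call needs an adjusted p under 0.05. The pseudocount makes log2 changes of low genes smaller. The fit was tested on simulated data. Promoter windows came from RefSeq (GRCh38.p14). The genes and lists were chosen with earlier results of these data known, so no list has a p of its own. All 45 genes are named, and from each other list the up to 4 largest log2 changes past the threshold, plus CCND1, CDKN1A, CDKN2A, RB1, MYC, RPA1, RPA3, POLD2, POLE2 and MKI67. Some named genes of these lists are not reported here. ORC2, ORC3, ORC4, ORC5, POLD3, POLE3, POLE4, CENPE and HMMR were named after their values were seen. Alternatives varied the pseudocount, the limit on low values, the scaling, the trend, a term for replicate number, and the libraries.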

Additional observations from a re-analysis of the deposited data

How the results depend on the processing

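No read depth can be had from TPM, so the spread of 3 libraries is the only error. Of 21 replication and G1/S genes called, 14 stayed called in all alternatives: CCNE1, CDT1, CHAF1A, E2F2, MCM3, MCM6, ORC6, PCNA, POLD1, RFC3, RFC5, RPA2, RRM1 and UHRF1. Over 69 single genes, 1102 pairs of gene and alternative gave 988 with the same direction and side of the threshold, 72 lost calls, 9 gained calls and 33 changes of direction, none of a called gene.

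Median-of-ratios scaling turned the all-gene split from 66.5% lower calls to 49.4%. Of the 45 genes, 14 fell with it and 13 with quantile normalization, 2 rose with either, and the median log2 change was -0.0714 and -0.0641. Of all 13722 tested genes, 2250 and 2229 were called lower with these scalings, and 2306 and 2233 higher. Falls among the other replication genes numbered 6 and 7, and rises 2 with either, with genes of 5 TPM or more and with the replicate block, and 0 with no variance trend. Falls among other nucleotide genes were 2 with either scaling, with no limit on low values and with a limit of 0.1 TPM. Rises among G1/S regulators were 1 without a limit, with a limit of 0.1 TPM and without mitochondrial transcripts, and 0 with no trend or with the block.

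With each library left out in turn, 15 to 18 of the 45 genes fell and 1 to 2 rose (2 without KD replicate 3), with medians from -0.15 to -0.13. Of all 13722 tested genes, 2504 to 2741 were called lower and 1306 to 1459 higher in these fits, against 3295 and 1660 with all libraries. Falls of other replication genes ran from 7 to 13 and rises from 1 to 2, falls of other nucleotide genes from 2 to 3, and rises of G1/S regulators from 0 to 1.

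Genes that did not pass the test changed sign. With median-of-ratios and quantile scaling the log2 changes were 0.0645 and 0.0334 for MCM7, 0.0404 and 0.0652 for CDC45, 0.0079 and 0.0188 for POLA1, 0.0606 and 0.0781 for POLA2, 0.0007 and 0.015 for LIG1, 0.0014 and 0.012 for E2F8, 0.0046 and 0.0122 for CHAF1B, 0.0512 and 0.041 for SLBP, 0.0578 and 0.056 for CLSPN and 0.0247 and 0.0093 for RB1, and 0.0092 for MCM5 with quantile. The median log2 change of all tested genes moved the same way, from -0.0599 to 0.0024 with median-of-ratios and 0.0021 with quantile scaling. The cause was not tested for single genes. With libraries left out, MCM7 ran from -0.0172 to 0.0047, GINS2 from -0.0055 to 0.1537, GINS4 from -0.2447 to 0.0741, POLA2 from -0.1302 to 0.0795, LIG1 from -0.1646 to 0.0206, CLSPN from -0.028 to 0.0254 and RB1 from -0.0747 to 0.0072.

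No pairing by replicate number was seen: deviations of same-numbered libraries correlated at -0.02, 0.034 and 0.033 over genes. Differently numbered libraries correlated at -0.066 to 0.034. Whether the samples were prepared in pairs cannot be told from these values. With the replicate number as a block, 17 of the 45 genes fell and 1 rose, where 2638 of all 13722 tested genes were called lower and 1369 higher.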
